A study of Mus musculus with 75 samples.

Results

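Epididymal white fat (eWAT) was compared with inguinal white fat (iWAT) of mice kept on chow. The libraries were chosen by their tissue and diet labels alone, which gave 31 of the 75 RNA-seq libraries of the series, 15 of eWAT and 16 of iWAT; gastrocnemius muscle on chow and both depots on a high-fat diet (HFD) make up the rest. The study used mitochondrial-nuclear exchange mice, in which the nuclear genome (n) of a mouse strain is joined to the mitochondrial genome (mt) of another. The eWAT libraries came from the exchange line C57n:C3Hmt (4), its nuclear parent C57n:C57mt (C57BL6/J, wild type, 4), the exchange line C3Hn:C57mt (4) and C3Hn:C3Hmt (C3H/HeN, wild type, 3), and the iWAT libraries from the same 4 genotypes (4 each). All these mice were weaned on chow and stayed on it until 12 to 13 weeks of age; sex is not stated in the labels. By the animal numbers in the labels, 8 of these mice gave both depots.

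Epididymal fat is a visceral depot that lies against the epididymis inside the abdominal cavity and is covered by mesothelium, while inguinal fat lies under the skin of the groin, holds a lymph node and borders on muscle. Adipocyte precursors of each depot keep transcription factors of the body region in which they arose, and inguinal fat of the mouse is known for beige adipocytes, which burn fuel through the uncoupling protein Ucp1. RNA came from pieces of whole depot, so fewer cells of a type and less RNA per cell cannot be told apart in any value below.

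Total counts per library were 19.3 to 28.8 M in eWAT and 21.2 to 26.3 M in iWAT, all from 1 sequencing run. Each lane of that run carried libraries of 1 tissue, so lane and depot cannot be told apart. Within a depot, lane also went with nuclear genome. The exception was eWAT replicate 1 of C57n:C57mt, which shared the lane of C3Hn. The share of ribosomal reads was 1.15, 2.15 and 8.03% in eWAT, against 1.28, 1.83 and 3.17% in iWAT; here and below, such trios are the lowest, the median and the highest library. Values of single genes in fat are CPM, the counts of a gene scaled to library size with TMM factors. Sums over gene lists and levels in muscle are CPM without these factors. Fold changes are log2 of eWAT over iWAT with their standard error (SE), averaged over the 4 genotypes, and a gene was called at an adjusted p under 0.05 in edgeR's quasi-likelihood test over all genes tested.

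RNA of tissue next to the fat was present in part of the libraries of both depots. The summed level of 29 epididymis genes reached 90040 and 83370 CPM in 2 eWAT libraries of C57n:C3Hmt, 23300 and 65.0 CPM in 2 of C57n:C57mt, and 2408 and 5939 CPM in 2 of C3Hn:C57mt. It was 1.77 to 21.6 CPM in the other 9 eWAT libraries, against 0.683 to 1.92 CPM in iWAT. One of the 6, C57n:C57mt replicate 3, also summed to 8064 CPM over 10 testis germ cell genes. Lymph node genes (28) summed to 56.5 to 394 CPM in eWAT, against 1160 to 3260 CPM in 11 iWAT libraries and 92.2 to 138 CPM in the other 5. Fast muscle genes (19) summed to 51.4 to 989 CPM in eWAT, against 4112 to 21970 CPM in 4 iWAT libraries and 79.1 to 1062 CPM in the other 12, and 3 of the 5 iWAT libraries low in lymph node RNA were among those 4. Results are therefore given for all 31 libraries and, where the call or the direction changed, for the 9 eWAT and 5 iWAT libraries low in epididymis and lymph node RNA, called the reduced set below. In the reduced set C3Hn:C3Hmt kept 3 eWAT and 2 iWAT libraries and the other genotypes 2 eWAT and 1 iWAT library each. A lone library was assumed to vary like the rest. Its limits (50 CPM over the epididymis genes, 500 CPM over the lymph node genes) were set after the sums were seen.

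**Figure D1:**
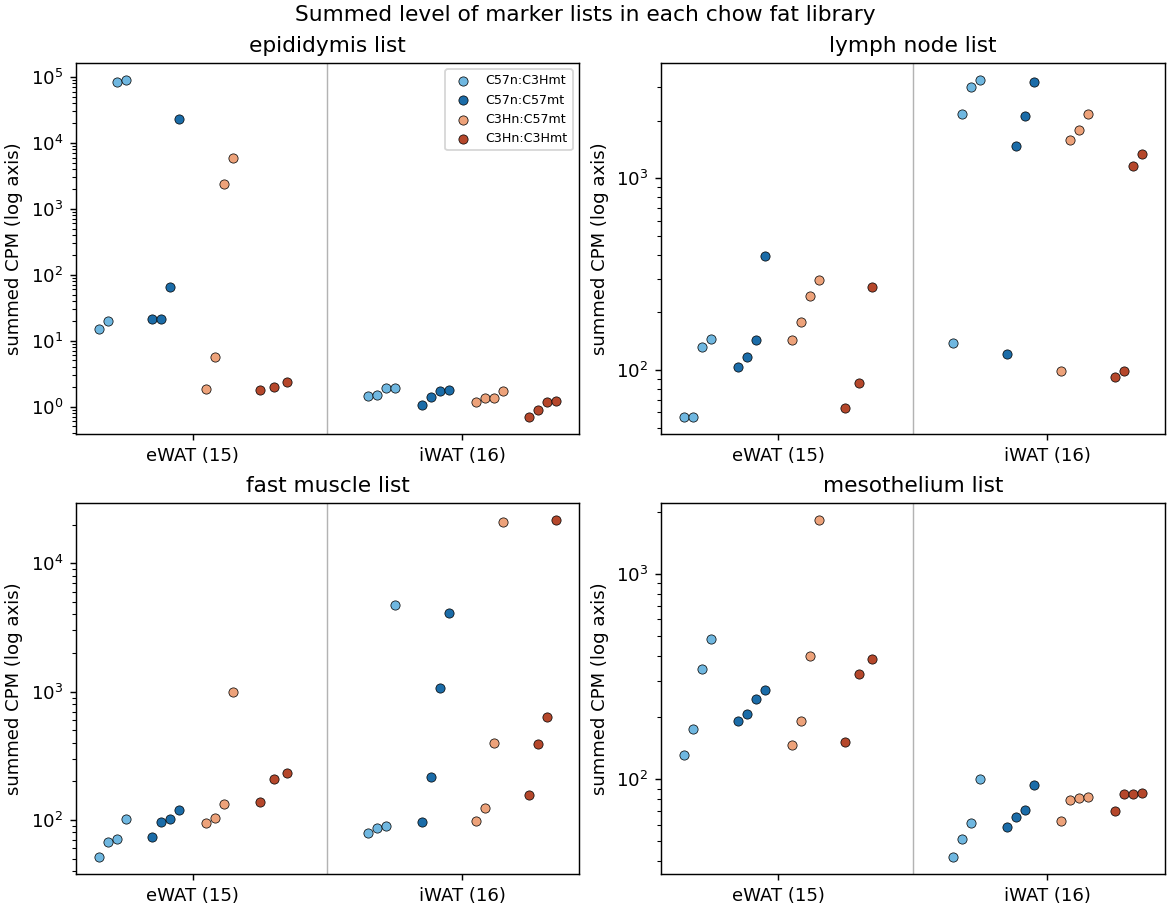
Summed CPM (log axis) of 4 marker lists in each chow fat library, eWAT left and iWAT right, with genotypes by colour. Epididymis RNA stood out in 6 eWAT libraries and lymph node RNA in 11 iWAT libraries, while the mesothelium list was at least 131 CPM in every eWAT library and at most 100.2 CPM in iWAT.

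Of 18146 genes tested, 3312 were higher (18.3%) and 2545 lower (14%) in eWAT, of which 1439 and 1097 differed at least 2-fold. With the animal as a block the split was 2071 higher (11.4%) and 2463 lower (13.6%) over all libraries. That fit used limma in place of edgeR, and no limma fit without the block was run. For calls said below to end with the block, the block and the change of test cannot be told apart. In the 8 mice that gave both depots, an edgeR fit with a term for each mouse gave 1103 higher and 1328 lower. The median log2 fold change over all genes tested was 0.06. Without the 6 eWAT libraries with epididymis RNA, 2967 genes were higher (17.3%) and 3393 lower (19.8%), and in the reduced set 343 were higher (2.00%) and 626 lower (3.65%). Without the 11 iWAT libraries with lymph node RNA alone, 96 were higher (0.480%) and 206 lower (1.03%). With the mean log2 CPM of the epididymis, lymph node and fast muscle lists as covariates, 446 were higher (2.46%) and 147 lower (0.810%). These 3 means are called the 3 tissue covariates below. Members of the 3 lists enter the covariates themselves, so that fit cannot test them. The epididymis sum passed 50 CPM in eWAT alone and the lymph node sum 500 CPM in iWAT alone. Covariates and depot are therefore hard to tell apart in that fit. The fits of all libraries, without the 6 and of the reduced set shared 252 higher and 347 lower calls. Counts of a gene list below are to be read against these shares. For 54 genes (0.298% of those tested) every eWAT library was above every iWAT library, and for 24 (0.132%) every iWAT library was above every eWAT library. Of the genes with such a gap, 51 of the 52 and 22 of the 22 that were also tested in the 28 HFD libraries, which come from other mice, were called in the same direction there.

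Among the 15 genes of largest fold change of those higher in eWAT without overlap were Serpina1f, Crisp1, Upk1b, 2210415F13Rik, Nxf3, Wt1, Upk3b, Tcf21, 1110008I14Rik, Lrp2, Alx1, Bnc1, Krt7 and Msln. Among the 15 of lowest fold change of those lower in eWAT without overlap were Tbx15, Lhx8, Hoxc10, Shox2, Il1r2, AK142074, Mmp3, En1, AK083203, Pcdh20, Gsc, Akr1c18, Mmp27 and Zfhx4.

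Among 42 patterning factors outside the Hox clusters, 14 were higher and 10 lower in eWAT (median -0.09), and 7 higher and 16 lower of 43 in the reduced set. Tcf21, a basic helix-loop-helix factor of visceral mesenchyme (chr10:22537085-22539934, NCBIM37), measured 5.68, 8.26 and 15.2 CPM in eWAT, against 0, 0.0444 and 0.255 CPM in iWAT. The lowest eWAT library was far above the highest iWAT library, and the fold change was 7.78 ± 0.33, adjusted p = 2.70e-14. Wt1, the Wilms tumour factor of mesothelium and visceral fat precursors (chr2:104966686-105013773, NCBIM37), measured 1.32, 6.16 and 10.6 CPM in eWAT, against 0, 0 and 0.277 CPM in iWAT, with most iWAT libraries at 0 (8.23 ± 0.55, adjusted p = 6.83e-10).

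Weaker but also without overlap was the zinc finger factor Gata5, at 0.12, 0.626 and 1.51 CPM in eWAT, against 0, 0 and 0.0791 CPM in iWAT (6.45 ± 0.63, adjusted p = 2.72e-06). Alx1, a homeobox factor of craniofacial mesenchyme, had 0.266, 0.802 and 7.20 CPM in eWAT, against 0, 0 and 0.0791 CPM in iWAT (7.10 ± 0.57, adjusted p = 3.00e-07). Both were close to or at 0 in iWAT, so their fold changes depend on few counts. The forkhead factor Foxc2 overlapped narrowly, with 0.658, 1.92 and 2.42 CPM in eWAT, against 0.138, 0.427 and 0.776 CPM in iWAT (1.83 ± 0.22, adjusted p = 1.88e-06). Hand2, a helix-loop-helix factor of lateral mesoderm, was called in all libraries (4.45 ± 0.76, adjusted p = 2.76e-04) but not in the reduced set (adjusted p = 0.0777).

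The lowest fold change among genes without overlap was that of Tbx15, a T-box factor of trunk and limb mesenchyme (chr3:99044304-99158182, NCBIM37), at 0, 0.0847 and 2.08 CPM in eWAT, against 9.73, 17.4 and 37.95 CPM in iWAT. No library overlapped, and the fold change was -7.47 ± 0.45, adjusted p = 1.60e-11. Tbx15 also stood at 169 to 218 CPM in gastrocnemius muscle; without the 4 iWAT libraries rich in muscle RNA its fold change was -7.21, adjusted p = 1.39e-09. The homeobox factor Shox2 (chr3:66775649-66785693, NCBIM37), with 0.962 to 2.15 CPM in muscle, measured 0, 0.406 and 0.823 CPM in eWAT, against 10.4, 17.97 and 23.2 CPM in iWAT. All iWAT libraries stood above all eWAT libraries by a wide margin (-5.53 ± 0.28, adjusted p = 5.18e-13). Lhx8, a LIM homeobox factor, was at 0 in most eWAT libraries and measured 0, 0 and 0.135 CPM in eWAT, against 0.552, 1.54 and 4.26 CPM in iWAT (-7.01 ± 0.63, adjusted p = 1.53e-07).

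Shox2 and Lhx8 are shown by their promoters, as 2 patterning factors that separate the depots and lie on the same chromosome. The sequences are from RefSeq (build GRCm38.p6, not the build of the gene positions above), run from 250 bases before to 50 after the gene start on the minus strand, and carry TATAAA in capitals. The Shox2 window is chr3:66981722-66982021 and that of Lhx8 chr3:154330511-154330810.
Shox2: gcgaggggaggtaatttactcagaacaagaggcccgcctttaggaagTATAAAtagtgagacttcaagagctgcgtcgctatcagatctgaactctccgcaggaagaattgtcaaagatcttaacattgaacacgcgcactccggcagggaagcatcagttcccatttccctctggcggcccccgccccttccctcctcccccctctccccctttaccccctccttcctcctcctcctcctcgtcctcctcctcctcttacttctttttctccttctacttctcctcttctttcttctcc
Lhx8: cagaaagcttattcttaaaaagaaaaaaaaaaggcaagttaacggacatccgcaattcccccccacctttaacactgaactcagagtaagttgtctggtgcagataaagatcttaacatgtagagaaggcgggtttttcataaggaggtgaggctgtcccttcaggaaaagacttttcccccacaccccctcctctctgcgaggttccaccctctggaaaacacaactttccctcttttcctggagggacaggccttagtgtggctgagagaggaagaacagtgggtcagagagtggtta
TATAAA was found at -203 from the gene start in the Shox2 window and not in that of Lhx8. CCAAT and TGATAA, searched on both strands like TATAAA, were in neither. Of all 32851 promoters in the table, 13.6% held TATAAA, 37.4% CCAAT and 9.05% TGATAA.

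En1, the engrailed homeobox factor of ventral ectoderm and dermis, measured 0, 0.148 and 0.339 CPM in eWAT, against 1.10, 2.30 and 4.13 CPM in iWAT (-3.95 ± 0.35, adjusted p = 1.46e-08). Gsc, the goosecoid homeobox factor, measured 0, 0.254 and 0.628 CPM in eWAT, against 0.667, 2.24 and 4.01 CPM in iWAT (-3.15 ± 0.40, adjusted p = 4.06e-06). Both were low, and the gap between the depots was narrow for Gsc. Zfhx4, a large zinc finger and homeobox factor, was better covered, with 1.02, 1.85 and 4.28 CPM in eWAT, against 7.82, 11.8 and 21.1 CPM in iWAT. Its fold change was -2.60 ± 0.14, adjusted p = 1.37e-12, with the smallest SE of the 28 genes listed above. Tbx5, the forelimb and heart T-box factor, overlapped between depots at 0.0369, 0.939 and 4.04 CPM in eWAT, against 1.05, 3.87 and 5.24 CPM in iWAT (-1.94 ± 0.35, adjusted p = 2.46e-04), and Msx1, a homeobox factor of mesenchyme, differed less (-0.63 ± 0.13, adjusted p = 9.14e-04).

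**Figure D2:**
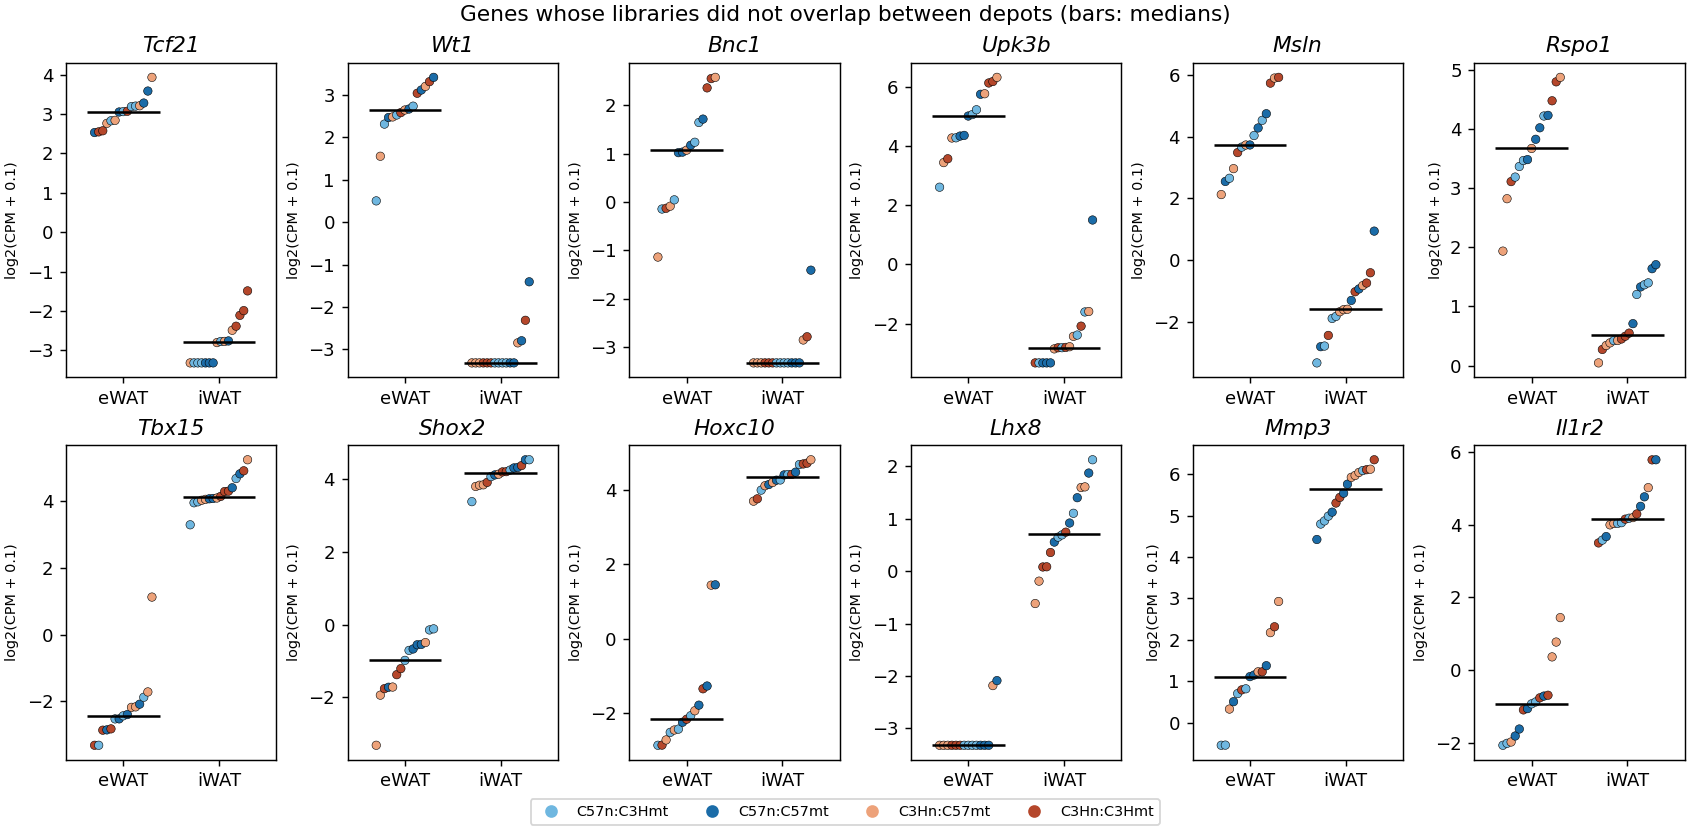
log2(CPM + 0.1) of 12 genes in each chow library, eWAT left of iWAT, with genotypes by colour and medians as bars. The 6 genes of the upper row were higher in every eWAT library than in any iWAT library, and the 6 of the lower row the reverse.

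Hox genes, whose clusters record position along the body axis, were called in both directions. Of 28 tested, 15 were higher and 4 lower in eWAT (median 0.87). With the animal as a block 11 were called in all, and in the reduced set 3 higher and 4 lower of 28. The 4 lower genes were paralogues 9 and 10 of the A and C clusters. Hoxb9 was higher over all libraries and not in the reduced set (-0.25, adjusted p = 0.666). The list counted 1 higher and 3 lower with the 3 tissue covariates, and fewer members were called without the 11 iWAT libraries with lymph node RNA alone. Hoxc10 (chr15:102797227-102802324, NCBIM37) measured 0.0366, 0.122 and 2.64 CPM in eWAT, against 12.9, 20.2 and 28.2 CPM in iWAT (-6.09 ± 0.53, adjusted p = 1.10e-08), without overlap. Muscle held 56.1 to 68.5 CPM, and without the 4 muscle-rich iWAT libraries the fold change was -6.02, adjusted p = 3.24e-07. Hoxc9 measured 1.46, 3.80 and 4.98 CPM in eWAT, against 6.58, 9.56 and 12.6 CPM in iWAT, again without overlap (-1.48 ± 0.13, adjusted p = 1.05e-08).

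Hoxa10 overlapped only through eWAT libraries with epididymis RNA: it measured 0, 0.16 and 41.9 CPM in eWAT, against 7.18, 12.1 and 14.7 CPM in iWAT, with 0, 0.0974 and 0.537 CPM in the 9 eWAT libraries low in that RNA. Its fold change was -3.63 ± 0.74, adjusted p = 7.23e-04 over all libraries and -6.63, adjusted p = 9.81e-12 without the 6. Hoxa9 had 0.0509, 0.127 and 7.41 CPM in eWAT, against 2.02, 2.60 and 4.19 CPM in iWAT (-2.25 ± 0.55, adjusted p = 0.00327), and -4.18, adjusted p = 4.01e-09 without the 6. Among anterior paralogues, Hoxa5 measured 3.85, 7.57 and 11.4 CPM in eWAT, against 2.62, 3.79 and 5.30 CPM in iWAT (0.94 ± 0.12, adjusted p = 3.99e-06). Hoxc4 measured 1.33, 13.5 and 18.2 CPM in eWAT, against 1.97, 4.58 and 7.08 CPM in iWAT (1.41 ± 0.25, adjusted p = 1.93e-04). Both were higher in eWAT also in the reduced set (Hoxa5 0.98, adjusted p = 0.0039; Hoxc4 1.39, adjusted p = 7.57e-04), whereas Hoxd8, Hoxb5, Hoxb2 and Hoxb6, called over all libraries, were not called there (adjusted p = 0.137, 0.13, 0.424 and 0.102). The block ended the calls of Hoxb6, Hoxb7, Hoxb8 and Hoxb9 (adjusted p = 0.0813, 0.131, 0.198 and 0.197). Overlapping transcripts run through the Hox clusters, and reads shared between neighbours were not told apart.

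**Figure D3:**
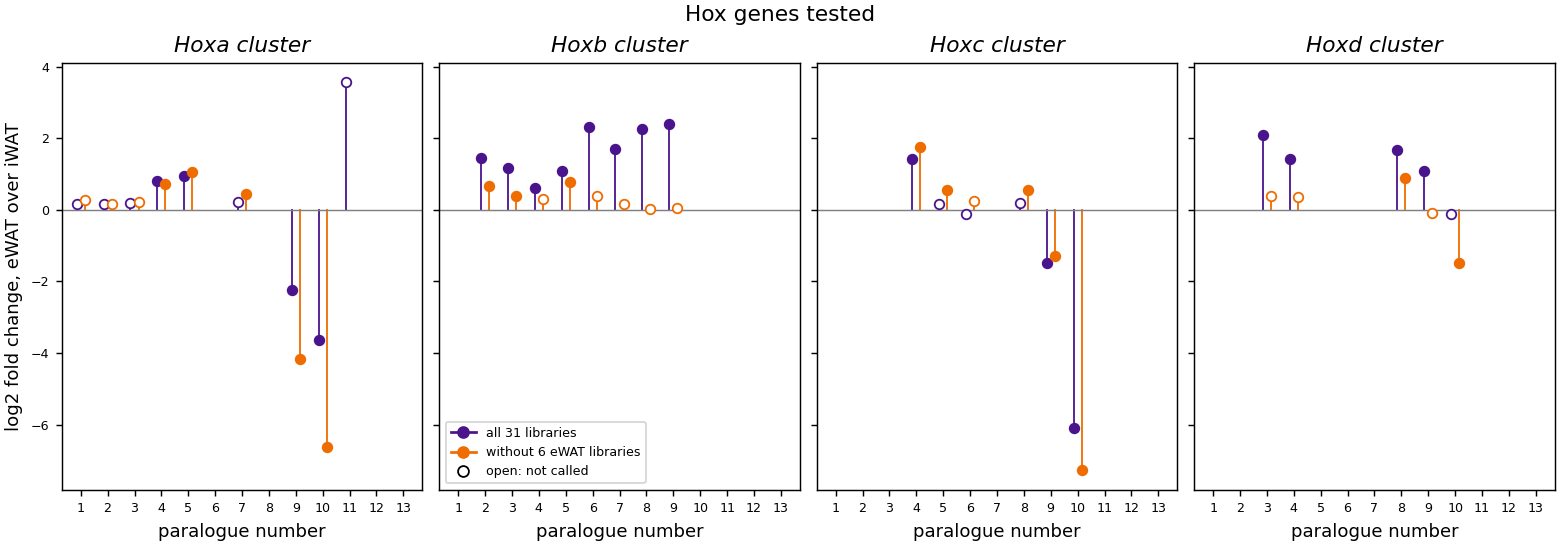
log2 fold change of each Hox gene tested, eWAT over iWAT, by cluster (panels) and paralogue number (x axis), over all 31 chow libraries and without the 6 eWAT libraries with epididymis RNA; open circles were not called. Hoxa9, Hoxa10, Hoxc9 and Hoxc10 were lower in eWAT in both fits, and in the B cluster Hoxb4, Hoxb6, Hoxb7, Hoxb8 and Hoxb9 were called only with the 6 libraries.

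Mesothelial genes were higher in eWAT as a group: 12 higher and 0 lower of 13 tested, median 5.12, and 10 higher and 0 lower of 13, median 3.33 in the reduced set. Without the 11 iWAT libraries with lymph node RNA alone the list counted 7 higher and 0 lower. The 3 tissue covariates gave 12 higher and 0 lower. Their sum was 131, 247 and 1832 CPM in eWAT, against 41.9, 74.9 and 100.2 CPM in iWAT, so every eWAT library exceeded every iWAT library. Upk3b, a uroplakin membrane protein, measured 6.00, 32.1 and 79.5 CPM in eWAT, against 0, 0.0432 and 2.73 CPM in iWAT (7.93 ± 0.65, adjusted p = 4.87e-09). Msln, the surface protein mesothelin, measured 4.26, 13.2 and 60.2 CPM in eWAT, against 0, 0.231 and 1.82 CPM in iWAT (6.14 ± 0.50, adjusted p = 3.99e-09). Only 1 iWAT library, of C57n:C57mt, was above 1 CPM for both, and it lay below every eWAT library.

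Rspo1, a secreted agonist of Wnt signalling, measured 3.73, 12.7 and 29.3 CPM in eWAT, against 0.931, 1.34 and 3.16 CPM in iWAT (3.14 ± 0.23, adjusted p = 6.83e-10). Upk1b, another uroplakin, reached its highest levels in libraries with epididymis RNA, at 1.68, 11.9 and 377 CPM in eWAT, against 0, 0 and 1.07 CPM in iWAT (9.64 ± 1.01, adjusted p = 6.63e-07), and was still higher in the reduced set (7.91, adjusted p = 0.00698). The transcription factor Bnc1 had 0.355, 2.00 and 5.85 CPM in eWAT, against 0, 0 and 0.277 CPM in iWAT (7.09 ± 0.67, adjusted p = 1.39e-07). The keratin Krt7 measured 1.16, 5.92 and 442 CPM in eWAT, against 0.0388, 0.251 and 0.514 CPM in iWAT (6.54 ± 0.78, adjusted p = 1.50e-06). Aldh1a2, which makes retinoic acid, overlapped between depots at 3.74, 15.6 and 32.6 CPM in eWAT, against 1.63, 3.03 and 9.17 CPM in iWAT (2.09 ± 0.22, adjusted p = 2.71e-07). Lrp2, the endocytic receptor megalin, measured 0.889, 3.80 and 92.8 CPM in eWAT, against 0, 0.0433 and 0.198 CPM in iWAT (7.14 ± 0.71, adjusted p = 9.92e-08), and its highest values were in libraries with epididymis RNA. In the reduced set Bnc1, Krt7, Aldh1a2 and Lrp2 were still called (adjusted p = 0.00835, 0.00496, 0.0411 and 5.97e-04).

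Nerve sheath genes were lower in eWAT: 2 higher and 9 lower of 14 tested, median -1.28, and 0 higher and 7 lower of 14 in the reduced set. Mbp, myelin basic protein, measured 11.7, 38.05 and 59.9 CPM in eWAT, against 65.8, 83.8 and 114 CPM in iWAT, without overlap (-1.31 ± 0.15, adjusted p = 6.63e-07). Periaxin Prx (-2.08 ± 0.26), the calcium-binding protein S100b (-1.97 ± 0.25) and the Schwann cell factor Sox10 (-2.28 ± 0.35) were lower too, with adjusted p of 4.05e-06, 4.76e-06 and 4.78e-05. The enzyme Cnp was lower over all libraries (-1.06 ± 0.15, adjusted p = 1.54e-05) but not in the reduced set (-0.26, adjusted p = 0.285). Without the 6 eWAT libraries with epididymis RNA the receptor Erbb3 was lower (-0.57, adjusted p = 0.0442). Erbb3 and Egr2, the 2 members higher in eWAT over all libraries (2.22 ± 0.58 and 1.26 ± 0.41, adjusted p = 0.00531 and 0.019), had their peaks of 31.9 and 223 CPM in single eWAT libraries and were not called in the reduced set (adjusted p = 0.575 and 0.857) or with the block (adjusted p = 0.376 and 0.121).

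Among other genes without overlap, Il1r2, the decoy receptor of interleukin 1, measured 0.137, 0.423 and 2.62 CPM in eWAT, against 11.2, 17.9 and 55.3 CPM in iWAT (-5.48 ± 0.35, adjusted p = 5.63e-11). Mmp3, the matrix protease stromelysin, measured 0.583, 2.06 and 7.50 CPM in eWAT, against 21.4, 50.3 and 81.5 CPM in iWAT (-4.46 ± 0.27, adjusted p = 2.19e-11). Both stood over 2-fold higher in the lowest iWAT library than in the highest eWAT library. Mmp27, a related protease, was low at 0.0887, 0.305 and 0.842 CPM in eWAT, against 0.964, 2.81 and 4.13 CPM in iWAT (-2.68 ± 0.29, adjusted p = 4.34e-07), as was the cell adhesion gene Pcdh20 at 0, 0.148 and 0.612 CPM in eWAT, against 0.845, 1.57 and 4.72 CPM in iWAT (-3.28 ± 0.41, adjusted p = 2.99e-06). AK142074 (-5.36 ± 0.42) and AK083203 (-3.50 ± 0.33), which are cDNA names without a gene annotation in the table, were lower in eWAT with adjusted p of 9.19e-09 and 3.71e-08. On the eWAT side, 1110008I14Rik (7.60 ± 0.70, adjusted p = 1.39e-06) reached 4.02 CPM in eWAT and 0.119 CPM in iWAT at most, and 2210415F13Rik and Nxf3, a gene of the RNA export factor family, had eWAT medians of 0.581 and 0.184 CPM with peaks of 2561 and 51.5 CPM. The block ended both calls (adjusted p = 0.504 and 0.14).

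Brown and beige fat genes were lower in eWAT: 0 higher and 16 lower of 24 tested, median -1.79, and 0 higher and 10 lower of 24, median -1.26 in the reduced set. Without the 11 iWAT libraries with lymph node RNA alone the list counted 0 higher and 2 lower. The 3 tissue covariates gave 0 higher and 5 lower. Ucp1, the uncoupling protein of thermogenic adipocytes, measured 0.0369, 1.11 and 237 CPM in eWAT, against 0.871, 312 and 1176 CPM in iWAT. It varied by over 3 orders of magnitude within each depot and the ranges overlapped broadly (-5.36 ± 1.03, adjusted p = 4.20e-04). Without the 11 iWAT libraries rich in lymph node RNA the call ended (-1.74, adjusted p = 0.613), while in the reduced set it held (-4.31, adjusted p = 0.0277). Within genotypes the difference was -12.53 in C57n:C3Hmt, -3.04 in C57n:C57mt, -2.13 in C3Hn:C57mt and -3.73 in C3Hn:C3Hmt, and it was called in C57n:C3Hmt alone (adjusted p = 0.00371). In tests of the difference itself, the depot difference of Ucp1 did not pass between nuclear genomes (-4.86 ± 1.79, adjusted p = 0.228). Nor did it pass between mitochondrial genomes with C57n (-9.49 ± 2.81, adjusted p = 0.539) or C3Hn (1.61 ± 2.33, adjusted p = 1).

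Cox8b, a cytochrome oxidase subunit of brown fat and muscle, overlapped only narrowly, with 3.04, 27.8 and 54.5 CPM in eWAT, against 52.1, 159 and 479 CPM in iWAT (-3.01 ± 0.35, adjusted p = 1.06e-06). Muscle held 358 to 597 CPM of Cox8b, and without the 4 muscle-rich iWAT libraries its fold change was -3.13, adjusted p = 1.33e-06. The proton channel Otop1 measured 0.172, 4.28 and 24.9 CPM in eWAT, against 20.4, 47.9 and 102 CPM in iWAT (-3.45 ± 0.41, adjusted p = 1.50e-06). The lipid droplet protein Cidea measured 2.37, 11.6 and 82.2 CPM in eWAT, against 20.2, 161 and 683 CPM in iWAT (-3.42 ± 0.52, adjusted p = 4.20e-05). In each of these genes the eWAT median lay below the lowest iWAT library. Cox7a1, another oxidase subunit of the heart and brown fat form, had 2.06, 6.11 and 21.3 CPM in eWAT, against 10.04, 27.0 and 138 CPM in iWAT (-2.37 ± 0.35, adjusted p = 3.00e-05). Tmem26 and Epsti1, listed as beige markers, were lower over all libraries (-2.83 ± 0.40 and -2.26 ± 0.33, adjusted p = 2.02e-05 and 2.56e-05) and not called in the reduced set (adjusted p = 0.0741 and 0.718).

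Genes of mitochondrial fuel oxidation were lower in eWAT across pathways, by less than 2-fold for most genes. Fatty acid oxidation genes counted 1 higher and 18 lower of 24 tested, median -0.63, TCA cycle genes 0 higher and 17 lower of 19 tested, median -0.57, and nuclear genes of oxidative phosphorylation 1 higher and 57 lower of 71 tested, median -0.33. In the reduced set the counts were 0 higher and 10 lower of 24, 0 higher and 3 lower of 19, and 0 higher and 1 lower of 71, with medians of -0.34, -0.23 and -0.18. Without the 11 iWAT libraries with lymph node RNA alone, 1, 0 and 0 were lower in these 3 lists. The 3 tissue covariates gave 1, 1 and 0. Correction for GC content and gene length left 37 oxidative phosphorylation genes called, and the fit without the 6 eWAT libraries with epididymis RNA 31. The reduced set holds 3 of the 4 muscle-rich iWAT libraries. Without those 4, the 3 lists counted 1 higher and 17 lower, 0 higher and 16 lower, and 1 higher and 55 lower.

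Acadl, long-chain acyl-CoA dehydrogenase, measured 104, 198 and 294 CPM in eWAT, against 277, 361 and 764 CPM in iWAT (-0.99 ± 0.14, adjusted p = 2.24e-05). Acadvl, its very-long-chain relative, measured 111, 229 and 335 CPM in eWAT, against 239, 420.2 and 905 CPM in iWAT (-1.10 ± 0.17, adjusted p = 3.94e-05). For Acadl the highest eWAT library just passed the lowest iWAT library. The carnitine carrier Slc25a20 measured 42.0, 66.1 and 83.3 CPM in eWAT, against 77.0, 106 and 199 CPM in iWAT (-0.84 ± 0.13, adjusted p = 3.73e-05), while Hadhb, Acaa2 and Etfdh, which act later in the same pathway, had log2 fold changes of -1.14, -0.89 and -0.73. Cpt1a, the carnitine acyltransferase at the entry to mitochondria, was the only member higher in eWAT, at 55.8, 116 and 199 CPM in eWAT, against 41.7, 83.4 and 128 CPM in iWAT (0.51 ± 0.14, adjusted p = 0.00761; reduced set 0.21, adjusted p = 0.31).

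Of the TCA cycle, Sucla2, a subunit of succinyl-CoA synthetase, measured 69.7, 148.4 and 200.5 CPM in eWAT, against 181, 246 and 469 CPM in iWAT (-0.88 ± 0.14, adjusted p = 7.64e-05). Its partner Suclg1 measured 100.2, 140.2 and 265 CPM in eWAT, against 140.3, 261 and 383 CPM in iWAT (-0.66 ± 0.12, adjusted p = 1.76e-04). Both kept their call in the reduced set (-0.67, adjusted p = 0.00135; -0.40, adjusted p = 0.0342). The dehydrogenase subunits Idh3g (-0.79 ± 0.14) and Idh3b (-0.78 ± 0.15) and the pyruvate dehydrogenase component Dlat (-0.77 ± 0.16) were called over all libraries and not in the reduced set (adjusted p = 0.127, 0.0896 and 0.067). In the respiratory chain, Cox7b of cytochrome oxidase measured 98.0, 123 and 183 CPM in eWAT, against 133, 181 and 339.8 CPM in iWAT (-0.60 ± 0.11, adjusted p = 2.24e-04; reduced set -0.30, adjusted p = 0.129) and Uqcrc1 of complex III 149, 264 and 353 CPM in eWAT, against 275, 398 and 681 CPM in iWAT (-0.68 ± 0.13, adjusted p = 3.32e-04; reduced set -0.33, adjusted p = 0.0532). Ndufs4 (-0.50 ± 0.09), Uqcrc2 (-0.64 ± 0.12), Cox5a (-0.62 ± 0.12) and Cyc1 (-0.67 ± 0.13) differed by similar amounts, and Atp5g1 was the 1 member higher in eWAT (0.61 ± 0.17, adjusted p = 0.00756; reduced set -0.02, adjusted p = 0.981).

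De novo lipogenesis genes counted 2 higher and 5 lower of 21 tested, median -0.48, and 2 higher and 0 lower of 21 in the reduced set. Without eWAT replicate 2 of C57n:C3Hmt 12 were called. The elongase Elovl6 measured 29.3, 76.7 and 421 CPM in eWAT, against 41.0, 178 and 1066 CPM in iWAT (-1.46 ± 0.35, adjusted p = 0.0029), and the acetyl-CoA carboxylase Acacb 20.5, 84.3 and 284 CPM in eWAT, against 45.9, 194 and 619 CPM in iWAT (-1.31 ± 0.32, adjusted p = 0.00292). Both spread over a wide range within a depot, and neither was called in the reduced set (-0.07, adjusted p = 0.958; -0.33, adjusted p = 0.58). The desaturases Fads1 and Fads2, which make polyunsaturated fatty acids, were higher in eWAT, at 52.1, 86.5 and 306 CPM in eWAT, against 29.8, 52.2 and 85.9 CPM in iWAT (1.04 ± 0.18, adjusted p = 1.34e-04) and 6.75, 11.9 and 192 CPM in eWAT, against 4.77, 6.10 and 9.87 CPM in iWAT (2.40 ± 0.46, adjusted p = 3.72e-04). In the reduced set their fold changes were 0.52, adjusted p = 0.0191 and 0.58, adjusted p = 0.0204.

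Adipocyte identity and lipid handling genes counted 1 higher and 6 lower of 31 tested, median -0.17, and 0 higher and 1 lower of 31 in the reduced set. The balance turned to 7 higher and 4 lower of 31, median 0.20, without the 6 eWAT libraries with epididymis RNA, and 4 were called without eWAT replicate 3 of C3Hn:C3Hmt or iWAT replicate 3 of C57n:C57mt. The acyltransferase Gpam was the 1 member higher in eWAT, at 33.6, 64.8 and 159.6 CPM in eWAT, against 31.3, 49.4 and 63.8 CPM in iWAT (0.71 ± 0.21, adjusted p = 0.0105; reduced set 0.96, adjusted p = 0.0533). The niacin receptor gene Gpr109a measured 7.35, 27.6 and 63.4 CPM in eWAT, against 17.4, 45.8 and 69.3 CPM in iWAT (-0.73 ± 0.20, adjusted p = 0.00722). It was not called in the reduced set (adjusted p = 0.0533), whereas Ffar2, a receptor of short-chain fatty acids, was called in both (-0.60 ± 0.23, adjusted p = 0.0431; -0.73, adjusted p = 7.57e-04). The glycerol phosphate enzyme Gpd1 (-0.86 ± 0.25), the acyltransferase Agpat2 (-0.72 ± 0.26) and the factor Cebpb (-0.41 ± 0.16) were lower over all libraries only. Agpat2 was not called in 5 of the 31 fits without 1 library, with adjusted p of 0.0518 to 0.0665, the highest without eWAT replicate 2 of C3Hn:C3Hmt. Cebpb was not called in 16 of the 31 fits without 1 library, with adjusted p of 0.0508 to 0.0906, the highest without eWAT replicate 3 of C3Hn:C3Hmt. Ffar2 was not called in 13 of the 31 fits without 1 library, with adjusted p of 0.0509 to 0.0755, the highest without iWAT replicate 1 of C57n:C3Hmt.

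Adipokine and expansion genes counted 3 higher and 0 lower of 22 tested, median 0.17, and 2 higher and 1 lower of 22 in the reduced set. The share called higher was below that of all genes tested, and the count was 8 higher and 0 lower of 22, median 0.44, without the 6 eWAT libraries with epididymis RNA and 5 without iWAT replicate 1 of C57n:C3Hmt. Cilp, a matrix protein of cartilage, measured 16.4, 53.8 and 113 CPM in eWAT, against 4.01, 6.68 and 14.03 CPM in iWAT (2.83 ± 0.26, adjusted p = 2.13e-08), without overlap. Agt, angiotensinogen, measured 7.23, 130 and 323 CPM in eWAT, against 4.19, 13.4 and 43.8 CPM in iWAT (3.10 ± 0.35, adjusted p = 6.80e-07), with the eWAT median above every iWAT library, and Rbp4, the retinol carrier, was higher over all libraries only (0.74 ± 0.28, adjusted p = 0.043; block adjusted p = 0.198). Rbp4 was not called in 20 of the 31 fits without 1 library, with adjusted p of 0.0503 to 0.102, the highest without eWAT replicate 3 of C3Hn:C57mt. The adipocyte hormones did not pass the test: Lep, leptin, measured 159, 1275 and 3444 CPM in eWAT, against 277, 1072 and 3872 CPM in iWAT (0.19 ± 0.37, adjusted p = 0.751). Adipoq, adiponectin, measured 466, 3883 and 6032 CPM in eWAT, against 1673, 2528 and 4232 CPM in iWAT (0.30 ± 0.28, adjusted p = 0.43). Adipoq was called without the 6 eWAT libraries with epididymis RNA (0.74, adjusted p = 0.00405) and not in the reduced set (0.31, adjusted p = 0.591), and the Lep estimate there was -0.18, adjusted p = 0.749.

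**Figure D4:**
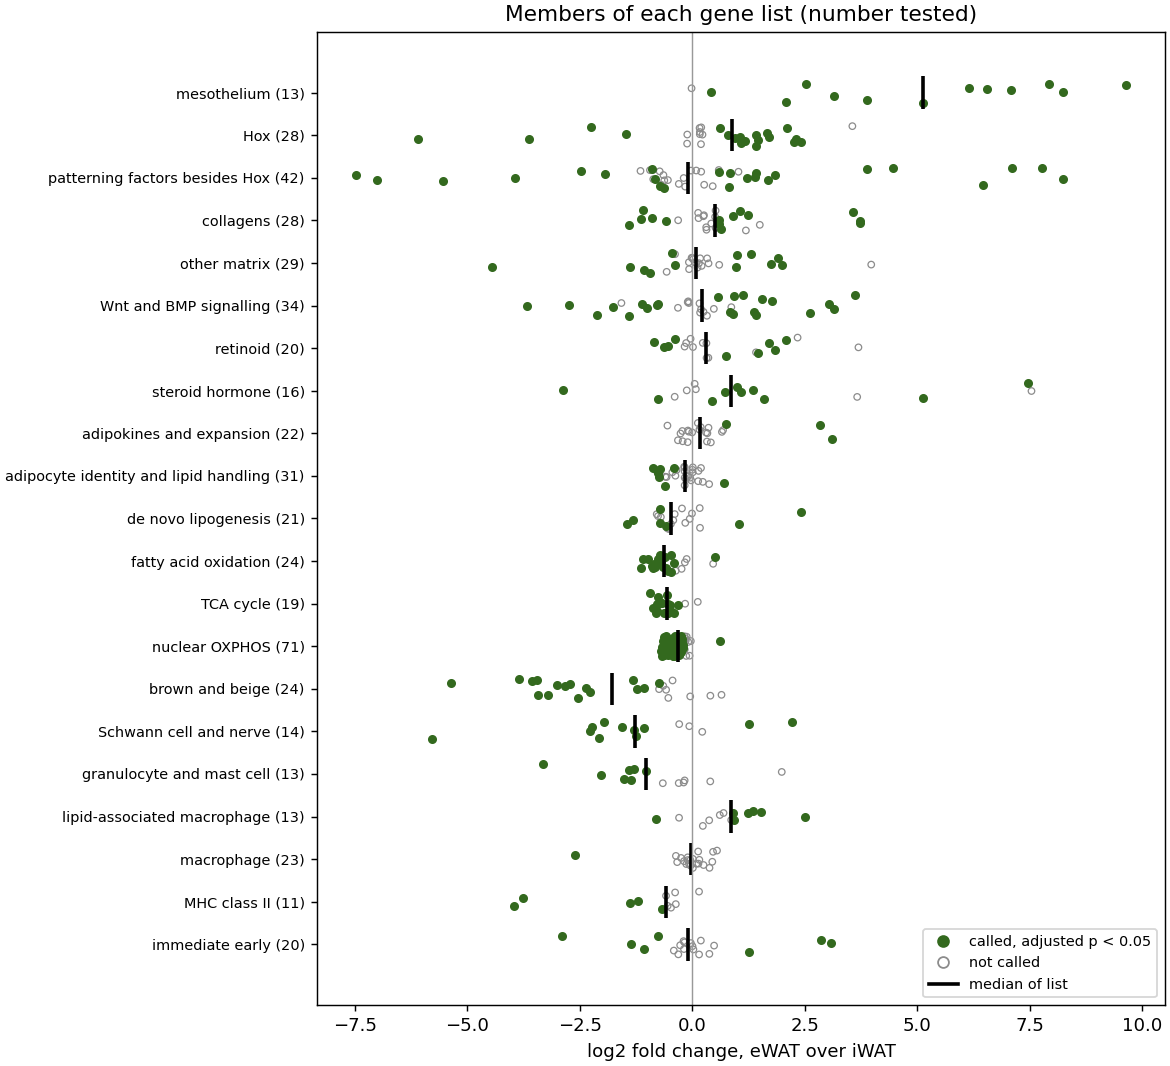
log2 fold change of each member of 21 gene lists, eWAT over iWAT, over all 31 chow libraries; filled points were called, open points were not, and bars are list medians. Mesothelium lay furthest to the eWAT side, brown and beige fat furthest to the iWAT side, and Hox and patterning factors spread to both.

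Without the 11 iWAT libraries with lymph node RNA alone, the counts were 0 higher and 5 lower for nerve sheath, 5 higher and 5 lower for patterning factors, 0 higher and 2 lower for progenitor genes, 2 higher and 2 lower for collagens, 1 higher and 4 lower for other matrix genes, 2 higher and 4 lower for Wnt and BMP signalling, 1 higher and 0 lower for retinoid genes, 2 higher and 0 lower for adipokines, 0 higher and 2 lower for granulocytes and mast cells and 2 higher and 2 lower for stress genes. With the 3 tissue covariates they were 0 higher and 5 lower for nerve sheath, 9 higher and 6 lower for patterning factors, 1 higher and 1 lower for progenitor genes, 5 higher and 2 lower for collagens, 1 higher and 4 lower for other matrix genes, 7 higher and 3 lower for Wnt and BMP signalling, 1 higher and 0 lower for retinoid genes, 2 higher and 0 lower for adipokines, 0 higher and 0 lower for granulocytes and mast cells and 2 higher and 0 lower for stress genes. De novo lipogenesis, adipocyte identity, macrophage and endothelial genes had no call in either fit.

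Matrix genes were called in both directions, the non-collagen genes at shares near those of all genes tested. Collagens counted 9 higher and 5 lower of 28 tested, median 0.51 (4 higher and 6 lower of 28 in the reduced set), and other matrix genes 6 higher and 6 lower of 29 tested, median 0.08 (2 higher and 6 lower of 28). Col6a5, a long chain of collagen VI, measured 15.9, 48.0 and 132 CPM in eWAT, against 1.33, 3.21 and 8.67 CPM in iWAT (3.72 ± 0.27, adjusted p = 6.83e-10), without overlap. The basement membrane chain Col4a6 measured 1.48, 3.71 and 52.8 CPM in eWAT, against 0.138, 0.463 and 1.01 CPM in iWAT (3.71 ± 0.40, adjusted p = 3.78e-07). The network collagen Col8a2 measured 0.775, 3.51 and 12.8 CPM in eWAT, against 0.175, 0.388 and 0.791 CPM in iWAT (3.56 ± 0.34, adjusted p = 4.41e-08). All 3 were higher also in the reduced set (4.17, adjusted p = 1.04e-04; 2.27, adjusted p = 7.24e-04; 2.36, adjusted p = 0.00125), as was Col8a1 (0.98, adjusted p = 0.00174), while Col4a5 and Col12a1 were not called there (adjusted p = 0.0605 and 0.915).

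The chains of the main fibrillar collagens were lower in eWAT. Col1a1 measured 162, 298 and 1320 CPM in eWAT, against 343, 906 and 1473 CPM in iWAT (-1.14 ± 0.19, adjusted p = 9.51e-05). Col1a2 measured 311, 476 and 1298 CPM in eWAT, against 519, 1356 and 2063 CPM in iWAT (-1.10 ± 0.16, adjusted p = 2.02e-05), with Col3a1 at -0.90 ± 0.23, adjusted p = 0.00443. These 3 and Col6a3 were called in the reduced set as well (adjusted p = 0.00141, 1.99e-04, 0.00742 and 0.0201), and Col27a1 was not (-0.82, adjusted p = 0.48). Col6a3 was not called with the block (adjusted p = 0.0533). The gelatinase Mmp2 measured 24.6, 68.3 and 187 CPM in eWAT, against 74.7, 229 and 334 CPM in iWAT (-1.39 ± 0.19, adjusted p = 1.40e-05). The crosslinking enzyme Lox (-1.07 ± 0.23), the thrombospondin Thbs2 (-0.95 ± 0.23) and the membrane protease Mmp14 (-0.39 ± 0.13) were lower in both sets, and Tnc, tenascin C, over all libraries only (-0.45 ± 0.16). Col6a3 was not called in 10 of the 31 fits without 1 library, with adjusted p of 0.0503 to 0.0775, the highest without iWAT replicate 1 of C57n:C3Hmt. Tnc was not called in 7 of the 31 fits without 1 library, with adjusted p of 0.0501 to 0.0703, the highest without eWAT replicate 3 of C3Hn:C3Hmt.

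On the eWAT side of the matrix, Fmod, the collagen-binding fibromodulin, measured 12.2, 43.9 and 97.3 CPM in eWAT, against 2.91, 12.0 and 24.9 CPM in iWAT (1.89 ± 0.32, adjusted p = 1.23e-04). Thbs1, thrombospondin 1, measured 30.3, 181 and 900.5 CPM in eWAT, against 16.1, 35.7 and 212 CPM in iWAT (2.00 ± 0.36, adjusted p = 2.52e-04; reduced set 1.399, adjusted p = 0.0576). The microfibril protein Fbn1 was higher in both sets (0.96 ± 0.26, adjusted p = 0.0071; 0.70, adjusted p = 0.00245). Efemp1, Timp1 and Fbn2 were higher over all libraries (0.99 ± 0.26, 1.31 ± 0.28 and 1.75 ± 0.64) and not called in the reduced set (adjusted p = 0.242, 0.513 and 0.305), and the block ended the call of Fbn2 (adjusted p = 0.234). Adipose progenitor markers counted 2 higher and 6 lower of 16 tested, median -0.15, and 1 higher and 3 lower of 16 in the reduced set. Pi16, a marker of interstitial progenitors, measured 33.8, 90.3 and 168 CPM in eWAT, against 96.9, 168 and 459 CPM in iWAT (-1.29 ± 0.23, adjusted p = 2.40e-04). The monooxygenase Fmo2 measured 19.0, 31.2 and 51.3 CPM in eWAT, against 12.0, 15.03 and 25.2 CPM in iWAT (1.10 ± 0.12, adjusted p = 2.74e-07). Both were called in the reduced set (-1.70, adjusted p = 9.93e-04; 0.82, adjusted p = 0.0125), unlike Sema3c, Icam1, Ly6a, Cd55 and Ptprd (adjusted p = 0.825, 0.896, 0.318, 0.767 and 0.0936). Fbn2 was not called in 12 of the 31 fits without 1 library, with adjusted p of 0.0529 to 0.133, the highest without eWAT replicate 3 of C57n:C57mt. Ptprd was not called in 1 of the 31 fits without 1 library, at an adjusted p of 0.0568 without eWAT replicate 2 of C3Hn:C3Hmt.

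Wnt and BMP signalling genes counted 13 higher and 9 lower of 34 tested, median 0.22, and 4 higher and 9 lower of 31 in the reduced set. Among ligands, Wnt2b measured 0.71, 2.55 and 5.46 CPM in eWAT, against 0.0851, 0.33 and 0.708 CPM in iWAT (3.04 ± 0.27, adjusted p = 1.68e-08), without overlap, and Bmp4 5.41, 8.61 and 13.6 CPM in eWAT, against 2.75, 4.45 and 7.04 CPM in iWAT (0.92 ± 0.16, adjusted p = 1.31e-04). Wnt2 went the other way, at 0.268, 1.14 and 5.54 CPM in eWAT, against 2.39, 3.40 and 9.17 CPM in iWAT (-1.75 ± 0.28, adjusted p = 7.14e-05). Bmp5 and Wnt11 were called over all libraries (1.41 ± 0.26 and -0.78 ± 0.19) and not in the reduced set (adjusted p = 0.116 and 0.144).

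Secreted inhibitors of these pathways split as well. Dkk2, a Wnt antagonist, measured 0.553, 1.03 and 5.76 CPM in eWAT, against 1.01, 5.54 and 11.2 CPM in iWAT (-2.13 ± 0.30, adjusted p = 1.59e-05). Sfrp2 measured 6.398, 16.9 and 34.99 CPM in eWAT, against 22.8, 35.9 and 76.2 CPM in iWAT (-1.13 ± 0.16, adjusted p = 1.83e-05). Sfrp1, of the same family as Sfrp2, was higher in eWAT at 12.8, 26.9 and 53.0 CPM in eWAT, against 5.16, 13.6 and 21.7 CPM in iWAT (1.13 ± 0.19, adjusted p = 1.27e-04), though not in the reduced set (0.39, adjusted p = 0.463). Noggin Nog, which binds BMPs, was higher in eWAT (2.62 ± 0.45, adjusted p = 1.51e-04). The Wnt agonist Rspo2 (-2.74 ± 0.65, adjusted p = 0.00292) and the BMP antagonist Grem1 (-3.67 ± 0.88, adjusted p = 0.00293) were lower, with eWAT medians near 0, in contrast to Rspo1 above. Grem1 was not called with the block (adjusted p = 0.0539) and was too low to be tested in the reduced set.

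Retinoid genes counted 5 higher and 4 lower of 20 tested, median 0.31, and 2 higher and 0 lower of 19 in the reduced set. Aldh1a1, a retinaldehyde dehydrogenase, measured 123, 225 and 1011 CPM in eWAT, against 32.7, 81.4 and 225 CPM in iWAT (1.69 ± 0.28, adjusted p = 9.81e-05; reduced set 0.44, adjusted p = 0.304). The carotene oxygenases Bcmo1 (1.47 ± 0.42) and Bcdo2 (-0.54 ± 0.14), the receptors Rarb (-0.64 ± 0.16) and Rara (-0.38 ± 0.11) and the retinoic acid hydroxylase Cyp26b1 (-0.86 ± 0.26) were called over all libraries and not in the reduced set (adjusted p = 0.678, 0.615, 0.233, 0.791 and 0.969). The block ended the call of Bcmo1 (adjusted p = 0.0776).

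Steroid hormone genes counted 8 higher and 2 lower of 16 tested, median 0.86; with the animal as a block 5 were called in all, and in the reduced set 0 higher and 2 lower of 13. Akr1c18, which inactivates progesterone, measured 0.133, 0.628 and 1.32 CPM in eWAT, against 1.75, 4.48 and 8.16 CPM in iWAT (-2.87 ± 0.32, adjusted p = 7.03e-07), without overlap. Hsd11b1, which regenerates glucocorticoid, was lower in eWAT at 37.7, 80.2 and 324 CPM in eWAT, against 106, 159 and 376 CPM in iWAT (-0.76 ± 0.24, adjusted p = 0.0162; reduced set -0.35, adjusted p = 0.377). Akr1b7, an aldose reductase of the male tract and adrenal, reached 10260 CPM in a library with epididymis RNA, with an eWAT median of 1.38 CPM (7.45 ± 1.51, adjusted p = 6.68e-04), and the block ended its call (adjusted p = 0.359). Fkbp5, Star, Sult1e1 and Srd5a1 were higher over all libraries (1.35 ± 0.35, 0.99 ± 0.29, 0.73 ± 0.24 and 1.603 ± 0.53) and not called in the reduced set (adjusted p = 0.509, 0.0893, 0.569 and 0.203). Without the 6 eWAT libraries with epididymis RNA Srd5a1 was lower (-0.64, adjusted p = 0.0302). The block also ended the calls of Star and Srd5a1 (adjusted p = 0.0546 and 0.486). Srd5a1 was not called in 2 of the 31 fits without 1 library, at an adjusted p of 0.125 without eWAT replicate 2 of C3Hn:C57mt and 0.085 without eWAT replicate 3 of C57n:C57mt.

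All 28 lymph node genes tested were lower in eWAT (median -4.17). The reduced set was formed by leaving out iWAT libraries high in these same genes, so it cannot test the list or its members. The list median was 0.35 there. Ccr7, the homing receptor of lymph nodes, measured 0.995, 2.20 and 10.7 CPM in eWAT, against 1.87, 65.7 and 130.5 CPM in iWAT (-4.45 ± 0.66, adjusted p = 3.15e-05). The T cell costimulator Cd28 measured 0.695, 1.34 and 2.48 CPM in eWAT, against 0.642, 14.1 and 22.1 CPM in iWAT (-3.03 ± 0.44, adjusted p = 2.58e-05). In the 5 iWAT libraries low in lymph node RNA Ccr7 stood at 1.87, 2.18 and 2.89 CPM and Cd28 at 0.642, 2.02 and 3.38 CPM. In the reduced set Ccr7 gave 0.06, adjusted p = 0.965 and Cd28 -0.29, adjusted p = 0.512. The T cell genes Cd27, Cd3g, Cd6 and Cd3d, the B cell receptor chains Cd79a and Cd79b, and the leukocyte genes Coro1a and Cd37 had fold changes of -1.89 to -4.81 and no call in the reduced set.

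Genes of MHC class II counted 0 higher and 5 lower of 11 tested, median -0.58, and 0 higher and 0 lower of 11 in the reduced set; 3 were called without eWAT replicate 1 or 3 and 10 without eWAT replicate 2 of C3Hn:C3Hmt. H2-Ob, a class II chain of B cells, measured 1.27, 3.21 and 14.5 CPM in eWAT, against 1.66, 51.2 and 169 CPM in iWAT (-3.96 ± 0.62, adjusted p = 5.92e-05; reduced set 0.32, adjusted p = 0.635), and H2-Oa, Ciita, H2-Eb1 and H2-DMb2 were lower over all libraries only (-3.77 ± 0.63, -1.39 ± 0.31, -0.67 ± 0.23 and -1.22 ± 0.44; block adjusted p of H2-DMb2 = 0.146). Macrophage genes counted 0 higher and 1 lower of 23 tested, median -0.04, 0 higher and 0 lower of 23 in the reduced set and 5 higher and 2 lower of 23, median 0.22, without the 6 eWAT libraries with epididymis RNA; 3 were called without eWAT replicate 2 of C3Hn:C57mt, and 2 without eWAT replicate 3 of C57n:C57mt. The member called over all libraries was Timd4, a receptor of resident macrophages, at 0.731, 5.55 and 14.8 CPM in eWAT, against 5.18, 40.5 and 96.9 CPM in iWAT (-2.60 ± 0.41, adjusted p = 6.75e-05; reduced set -0.26, adjusted p = 0.701). H2-DMb2 was not called in 11 of the 31 fits without 1 library, with adjusted p of 0.0502 to 0.0688, the highest without eWAT replicate 1 of C3Hn:C3Hmt. H2-Eb1 was not called in 2 of the 31 fits without 1 library, at an adjusted p of 0.0522 without eWAT replicate 1 of C3Hn:C3Hmt and 0.0508 without eWAT replicate 3 of C3Hn:C3Hmt.

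Genes of lipid-associated macrophages counted 6 higher and 1 lower of 13 tested, median 0.86; 4 were called with the animal as a block, and 0 higher and 0 lower of 13 in the reduced set. The receptor Trem2 measured 3.50, 8.30 and 205 CPM in eWAT, against 0.789, 13.0 and 31.6 CPM in iWAT (1.51 ± 0.37, adjusted p = 0.00299). The proton pump subunit Atp6v0d2 measured 0.812, 10.7 and 106 CPM in eWAT, against 0.138, 6.75 and 18.01 CPM in iWAT (2.51 ± 0.57, adjusted p = 0.00169). The iWAT median of Trem2 was above that of eWAT, and the animal block ended both calls (adjusted p = 0.0622 and 0.11). The tetraspanin Cd9 measured 37.8, 68.2 and 256 CPM in eWAT, against 35.2, 55.4 and 64.7 CPM in iWAT (0.92 ± 0.22, adjusted p = 0.00298), with Mmp12, Lgals3 and Gpnmb also higher (1.35 ± 0.34, 0.90 ± 0.27 and 1.25 ± 0.39) and the protease Ctsk lower (-0.81 ± 0.26). The block also ended the call of Gpnmb (adjusted p = 0.155). None of the list was called in the reduced set. Gpnmb was not called in 1 of the 31 fits without 1 library, at an adjusted p of 0.0584 without eWAT replicate 2 of C3Hn:C3Hmt. Lgals3 was not called in 1 of the 31 fits without 1 library, at an adjusted p of 0.0656 without eWAT replicate 2 of C3Hn:C3Hmt.

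Granulocyte and mast cell genes counted 0 higher and 7 lower of 13 tested, median -1.03, and 0 higher and 4 lower of 13 in the reduced set. The mast cell protease Mcpt4 measured 2.05, 9.89 and 16.4 CPM in eWAT, against 12.9, 27.0 and 46.9 CPM in iWAT (-1.53 ± 0.21, adjusted p = 1.44e-05). Cma1, another, measured 1.72, 7.33 and 12.3 CPM in eWAT, against 10.6, 18.6 and 31.3 CPM in iWAT (-1.36 ± 0.21, adjusted p = 3.99e-05). The third, Cpa3, measured 1.35, 6.24 and 12.8 CPM in eWAT, against 9.23, 16.5 and 26.5 CPM in iWAT (-1.41 ± 0.21, adjusted p = 4.11e-05). These 3 were lower in eWAT in all libraries and in the reduced set (adjusted p = 0.0133, 0.0099 and 0.0155). For each of these 3, the eWAT median lay below the lowest iWAT library. Tpsb2, a tryptase with near-identical relatives and so uncertain, was lower over all libraries (-1.03 ± 0.20, adjusted p = 3.89e-04), as were the granulocyte genes Ngp (-3.33 ± 0.50) and S100a9 (-1.29 ± 0.31). These 3 were not called in the reduced set (adjusted p = 0.0515, 0.141 and 0.565). Of 18 endothelial genes, Vwf alone was called over all libraries (0.43 ± 0.14, adjusted p = 0.0174; reduced set 0.43, adjusted p = 0.384), with a list median of 0.19. The list counted 15 higher and 0 lower of 18, median 0.47, without the 6 eWAT libraries with epididymis RNA, and 0 higher and 0 lower of 18 in the reduced set. Of 8 lymphatic endothelial genes (median 0.29, and -0.18 without those 6) Pdpn was higher, at 13.8, 25.4 and 61.6 CPM in eWAT, against 7.19, 11.3 and 16.5 CPM in iWAT (1.43 ± 0.21, adjusted p = 2.54e-05; reduced set 0.87, adjusted p = 0.158), and Fgl2 lower (-0.53 ± 0.12, adjusted p = 0.00164). Of 27 cell cycle genes, Mcm3 alone was called (-0.48 ± 0.16, adjusted p = 0.0221; reduced set 0.23, adjusted p = 0.5683), and leaving out any one of 10 libraries gave 2 or 3. Vwf was not called in 1 of the 31 fits without 1 library, at an adjusted p of 0.0593 without eWAT replicate 1 of C3Hn:C3Hmt.

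Stress and immediate early genes were called at shares near those of all genes tested: 3 higher and 4 lower of 20 tested, median -0.10, and 2 higher and 2 lower of 20 in the reduced set. The inducible heat shock gene Hspa1a measured 26.9, 59.5 and 239.9 CPM in eWAT, against 3.33, 7.98 and 25.0 CPM in iWAT (2.87 ± 0.38, adjusted p = 8.63e-06). Its copy Hspa1b measured 35.5, 74.0 and 239 CPM in eWAT, against 3.96, 8.43 and 27.6 CPM in iWAT (3.09 ± 0.35, adjusted p = 7.03e-07). Both were higher in eWAT without overlap; they are near-identical copies, so their split is uncertain. Fosb, a subunit of AP-1, measured 4.39, 9.63 and 34.2 CPM in eWAT, against 3.13, 26.1 and 488 CPM in iWAT (-2.89 ± 0.61, adjusted p = 0.001), and the animal block ended its call (adjusted p = 0.0631). Klf2, a zinc finger factor of lymphocytes and endothelium, measured 12.9, 34.6 and 65.4 CPM in eWAT, against 27.5, 71.2 and 122 CPM in iWAT (-1.07 ± 0.19, adjusted p = 1.87e-04). Egr3 measured 0.995, 3.96 and 10.3 CPM in eWAT, against 2.17, 9.41 and 30.03 CPM in iWAT (-1.36 ± 0.26, adjusted p = 3.68e-04). Neither was called in the reduced set (adjusted p = 0.451 and 0.178), unlike Klf4 (-0.76 ± 0.23 over all libraries, -1.21, adjusted p = 0.00146 in the reduced set, block adjusted p = 0.0593).

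Genes of the epididymis had the largest fold changes of all, and rested on few libraries. Of 29 tested, 8 were higher and 0 lower in eWAT, and 0 were called with the animal as a block. Without the 6 eWAT libraries with epididymis RNA only 12 were still tested, 6 of them higher. Most members thus entered the test through those 6 libraries, which were chosen by these same genes. The list summed to at most 1.92 CPM in iWAT, so calls lower in eWAT were hardly possible. Crisp1, a sperm-coating protein secreted by the epididymis (chr17:40430707-40456156, NCBIM37), measured 0.361, 1.11 and 7237 CPM in eWAT, against 0, 0.0442 and 0.0918 CPM in iWAT (12.01 ± 1.80, adjusted p = 5.50e-05; block adjusted p = 0.368). In the 9 eWAT libraries low in epididymis RNA it still measured 0.361, 0.814 and 1.21 CPM, each above every iWAT library, and the reduced set gave 4.42. The residue of epididymis genes in these 9 went with the sequencing lane. Their sum was 15.1 to 21.6 CPM in the lane that also held the libraries of 90040 and 83370 CPM. It was 1.77 to 5.71 CPM in the other eWAT lane. Whether the residue is RNA of these depots was not tested. Serpina1f, a serine protease inhibitor of the epididymis, had no count in any iWAT library and 0.0802, 0.4656 and 1129 CPM in eWAT. Set against a floor of 3 counts per iWAT library, the eWAT mean was at least 1516-fold higher, and that of the 9 libraries low in epididymis RNA at least 1.80-fold higher (adjusted p over all libraries = 0.0116, block 0.372).

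Their promoters are shown as those of the 2 genes of largest fold change among those higher in eWAT without overlap, from the RefSeq table (GRCm38.p6), both on the minus strand, chr12:103695480-103695779 for Serpina1f and chr17:40319158-40319457 for Crisp1, with TATAAA in capitals.
Serpina1f: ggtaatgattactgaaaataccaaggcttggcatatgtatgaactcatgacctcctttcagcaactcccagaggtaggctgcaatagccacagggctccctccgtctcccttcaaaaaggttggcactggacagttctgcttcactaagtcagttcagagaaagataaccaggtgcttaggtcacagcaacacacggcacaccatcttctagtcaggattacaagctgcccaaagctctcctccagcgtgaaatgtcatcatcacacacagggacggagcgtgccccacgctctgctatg
Crisp1: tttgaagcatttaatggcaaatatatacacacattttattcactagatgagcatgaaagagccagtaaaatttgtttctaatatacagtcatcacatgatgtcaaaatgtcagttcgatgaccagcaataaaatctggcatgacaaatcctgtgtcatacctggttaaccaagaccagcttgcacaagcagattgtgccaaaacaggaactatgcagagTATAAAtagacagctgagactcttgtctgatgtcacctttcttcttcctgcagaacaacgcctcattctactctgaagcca
Crisp1 held TATAAA at -31 from the gene start. CCAAT and TGATAA were in neither window on either strand.

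Spink8, a protease inhibitor, was likewise at 0 in all iWAT libraries and measured 0, 0.664 and 1968 CPM in eWAT, a mean at least 1772-fold higher than the same floor (adjusted p = 0.021), and at least 2.33-fold higher over the 9 libraries low in epididymis RNA. Gpx5, the secreted glutathione peroxidase of the epididymis, measured 0.0407, 4.66 and 35280 CPM in eWAT, against 0, 0 and 0.413 CPM in iWAT (10.91 ± 2.93, adjusted p = 0.00818). The block ended the call (0.246 as adjusted p), as did leaving out eWAT replicate 2 of C3Hn:C3Hmt (adjusted p = 0.0878). Cuzd1 and Ces7 were not called in the reduced set (adjusted p = 0.0762 and 0.151). The lipocalins Lcn5 (13.07 ± 4.17, adjusted p = 0.0243) and Lcn8 (adjusted p = 0.279), the membrane proteins Cuzd1 (10.83 ± 2.01, adjusted p = 2.99e-04) and Adam7 (adjusted p = 0.167), the esterase Ces7 (10.74 ± 3.27, adjusted p = 0.0169), and Rnase10, Defb42 and Adam28 peaked at 5047, 5985, 4491, 8405, 1582, 3883, 1583 and 1526 CPM in eWAT, against at most 1.01 CPM in iWAT. The block ended the calls of Spink8, Lcn5, Cuzd1, Ces7, Rnase10, Defb42 and Adam28 (adjusted p = 0.408, 0.471, 0.472, 0.416, 0.618, 0.554 and 0.678). Spink8 was not called in 3 of the 31 fits without 1 library, at an adjusted p of 0.0544 without eWAT replicate 1 of C3Hn:C3Hmt, 0.0954 without eWAT replicate 2 of C3Hn:C3Hmt and 0.0542 without eWAT replicate 3 of C3Hn:C3Hmt. Lcn5 was not called in 3 of the 31 fits without 1 library, at an adjusted p of 0.0576 without eWAT replicate 1 of C3Hn:C3Hmt, 0.125 without eWAT replicate 2 of C3Hn:C3Hmt and 0.0574 without eWAT replicate 3 of C3Hn:C3Hmt. Ces7 was not called in 1 of the 31 fits without 1 library, at an adjusted p of 0.183 without eWAT replicate 1 of C3Hn:C3Hmt. Defb42 was not called in 1 of the 31 fits without 1 library, at an adjusted p of 0.119 without eWAT replicate 1 of C3Hn:C3Hmt.

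Fewer epithelial and smooth muscle genes were called in the reduced set, which lacks the eWAT libraries with epididymis RNA; the part of that RNA was not tested further. Simple epithelium genes counted 9 higher and 0 lower of 15 tested, median 5.07, 0 with the block and 2 higher and 1 lower of 13 in the reduced set. Without the 6 eWAT libraries with epididymis RNA the count was 3 higher and 2 lower of 9, median -0.66. In the reduced set the median was 1.06 over 13. Different members passed the filter in each fit, so these medians are not of the same genes. Krt8 and Krt18, the keratins of simple epithelium and mesothelium, measured 1.18, 14.8 and 448 CPM in eWAT, against 0, 0.112 and 3.31 CPM in iWAT (8.38 ± 0.98, adjusted p = 1.21e-06) and 1.79, 16.7 and 548 CPM in eWAT, against 0, 0.113 and 3.74 CPM in iWAT (8.25 ± 1.05, adjusted p = 4.68e-06). The block ended both calls (adjusted p = 0.0593 and 0.0908), while the reduced set held them (adjusted p = 0.00301 and 0.00494). Prom1, Tacstd1, Cldn3, Spint1 and Spint2 were higher over all libraries (4.88 ± 0.85, 5.07 ± 1.03, 4.01 ± 0.87, 3.80 ± 0.84 and 2.15 ± 0.56) and not called in the reduced set, nor with the block (adjusted p = 0.268, 0.333, 0.392, 0.332 and 0.216).

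Smooth muscle genes counted 8 higher and 0 lower of 10 tested, median 1.48, 4 called with the block and 1 higher and 1 lower of 10 in the reduced set. Actg2, an actin of visceral smooth muscle, measured 0.762, 3.08 and 1107 CPM in eWAT, against 0.621, 0.978 and 1.53 CPM in iWAT (5.70 ± 0.98, adjusted p = 1.44e-04; block adjusted p = 0.285, reduced set 1.20, adjusted p = 0.156). The myosin kinase Mylk was called in both (1.46 ± 0.29, adjusted p = 6.44e-04; 0.65, adjusted p = 0.0155), and Cnn1, Acta2, Myh11 and Smtn over all libraries only (3.78 ± 0.72, 1.498 ± 0.31, 1.84 ± 0.45 and 0.74 ± 0.19), the block ending the calls of Cnn1 and Myh11 (adjusted p = 0.122 and 0.0508). Actins share coding sequence, so their split is uncertain. Of 10 testis germ cell genes the kinase Tssk6 alone was called (3.61 ± 0.80, adjusted p = 0.00149; block adjusted p = 0.168), and Prm2, Ldhc, Prm1 and Tnp2 peaked at 1782, 934, 931 and 903 CPM in 1 eWAT library. Keratinocyte and mammary genes counted 3 higher and 1 lower of 9 tested, median 1.99, 1 called with the block and 0 higher and 2 lower of 10 in the reduced set, and 1 higher and 2 lower of 7, median -1.03, without the 6 eWAT libraries with epididymis RNA. Krt14, Dsp and Krt5 were higher in eWAT (6.33 ± 1.23, 5.27 ± 1.09 and 5.82 ± 2.08; adjusted p = 0.0505, 0.0558 and 0.341 with the block). In the reduced set none of the 3 was called (Krt14 3.66, adjusted p = 0.178; Dsp 1.81, adjusted p = 1; Krt5 -2.40, adjusted p = 1), and without the 6 eWAT libraries with epididymis RNA Krt5 was lower in value (-2.42, adjusted p = 1). Krtdap was lower (-2.35 ± 0.40, adjusted p = 1.50e-04; reduced set -3.35), with Krt15 and Ltf not called (adjusted p = 0.0532 and 0.0914). In iWAT replicate 2 of C57n:C57mt, which is in the reduced set, Krtdap measured 19.7 CPM. The keratinocyte and mammary list summed to 123 CPM there, against an iWAT median of 6.78 CPM. Krt5 was not called in 5 of the 31 fits without 1 library, with adjusted p of 0.0502 to 0.418, the highest without eWAT replicate 3 of C57n:C57mt. Krt15 was called in 4 fits without 1 library, with a lowest adjusted p of 0.0179 without iWAT replicate 2 of C57n:C57mt. Without eWAT replicate 3 of C57n:C57mt, the library with testis RNA, Ldhc was called (adjusted p = 0.0122) and the fold change of Ltf was -0.34.

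All 19 fast muscle genes tested were lower in eWAT (median -6.50), 2 with the animal as a block, and 0 higher and 19 lower of 19 in the reduced set, which holds 3 of the 4 muscle-rich iWAT libraries. Myh4, the fast myosin heavy chain, measured 0, 0 and 45.7 CPM in eWAT, against 0.128, 12.3 and 5776 CPM in iWAT (-12.54 ± 2.42, adjusted p = 5.51e-04). The calcium pump Atp2a1 measured 0, 0.0816 and 29.2 CPM in eWAT, against 0.356, 6.86 and 2102 CPM in iWAT (-9.49 ± 1.80, adjusted p = 3.69e-04). Creatine kinase Ckm measured 0, 0.0509 and 108 CPM in eWAT, against 0.219, 6.30 and 2588 CPM in iWAT (-8.48 ± 1.89, adjusted p = 0.0015). For all 3 the iWAT range spanned over 3 orders of magnitude, the eWAT median was at or near 0, and the block ended the call (adjusted p = 0.367, 0.297 and 0.344).

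Skeletal actin Acta1 measured 5.81, 42.8 and 405 CPM in eWAT, against 3.08, 92.8 and 3212 CPM in iWAT (-2.79 ± 0.84, adjusted p = 0.0134). Its call ended with the block (adjusted p = 0.532) and without iWAT replicate 1 of C57n:C3Hmt (adjusted p = 0.0868), and without the 4 muscle-rich iWAT libraries the fold change was 0.32, adjusted p = 0.632. Xirp2, Pvalb, Tnnt3, Ttn, Ampd1, Tnni2 and Mybpc2 had fold changes of -9.08, -8.69, -8.55, -7.84, -7.68, -6.73 and -6.36. All of these calls but that of Ampd1 ended with the block (adjusted p = 0.198, 0.326, 0.238, 0.142, 0.159 and 0.159). The first 5 and Myh4, Atp2a1 and Ckm were the 8 genes with the lowest fold changes of all called. Of 8 slow muscle genes 4 were lower, 1 with the block and 2 in the reduced set: Tnni1, Myl2, Myh7 and Tnnc1 (-2.57 ± 0.54, -3.67 ± 1.04, -3.57 ± 1.03 and -1.37 ± 0.42; adjusted p = 0.282, 0.144 and 0.0987 with the block for the last 3), while Tnnt1 was not called (adjusted p = 0.301), except without iWAT replicate 2 of C57n:C57mt (adjusted p = 0.0314).

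The depot difference was also tested within each genotype. In C57n:C3Hmt 1787 genes were higher and 1328 lower in eWAT (17.2% called), in C57n:C57mt 1315 and 550 (10.3%), in C3Hn:C57mt 429 and 139 (3.13%), and in C3Hn:C3Hmt, with 3 eWAT libraries, 55 and 32 (0.479%). Of the genes called over all genotypes, 2640 of 3312 higher and 2236 of 2545 lower genes had the same sign in all 4, and 39 and 19 were called in each. Epididymis RNA was found in eWAT of the first 3 genotypes named and not in that of C3Hn:C3Hmt, and its part in these counts was not tested beyond leaving libraries out: without the 6, the counts were 721, 597, 727 and 361 in the same order. With the animal as a block they were 1527, 490, 319 and 88.

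Single libraries moved the counts within genotypes by more than 1.5 times. In C57n:C3Hmt the count was 1075 and 1114 without eWAT replicate 1 or 4, the 2 with the most epididymis RNA, and 1509, 1787 and 1772 without iWAT replicate 2, 3 or 4. In C57n:C57mt it was 447 without eWAT replicate 3 and 462, 492 and 494 without iWAT replicate 1, 3 or 4. In C3Hn:C57mt it was 125, 150 and 155 without iWAT replicate 1, 3 or 4, and 1035 without eWAT replicate 3 of C57n:C57mt. In C3Hn:C3Hmt it was 46 and 44 without eWAT replicate 2 or 3 and 137 without eWAT replicate 2 of C3Hn:C57mt. Tcf21 was higher in eWAT by 8.99 in C57n:C3Hmt, 9.09 in C57n:C57mt, 7.67 in C3Hn:C57mt and 5.35 in C3Hn:C3Hmt, and Shox2 lower, at -4.76 in C57n:C3Hmt, -5.40 in C57n:C57mt, -5.95 in C3Hn:C57mt and -6.03 in C3Hn:C3Hmt. Both were called in each genotype.

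Within each depot lane went with nuclear genome but for 1 eWAT library, so lane and nucleus can hardly be told apart here. Whether the depot difference depended on the nuclear genome was tested as the difference with C57n minus that with C3Hn. It was called for 25 genes (0.138%), 4 positive and 21 negative, and for 93 without the 6 eWAT libraries with epididymis RNA but 0 without the 11 iWAT libraries with lymph node RNA, a fit in which 3 of the 4 genotypes keep 1 iWAT library. These calls were sensitive to single libraries: the 8 of smallest adjusted p, named next, were each called in 7 to 11 of the 31 fits that left out a single library, the block left 6 genes, and leaving out any one of the 31 libraries moved the count by over 1.5 times, to between 0 and 156 (156 without eWAT replicate 2 of C3Hn:C57mt, 103 without iWAT replicate 1 of C57n:C3Hmt). DESeq2 called 514 genes, these 8 among them.

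1300002K09Rik measured 0.0895, 0.177 and 0.237 CPM with C57n and 0.977, 4.28 and 7.74 CPM with C3Hn in eWAT, and 0.0396, 0.669 and 1.33 CPM with C57n and 0.582, 1.005 and 2.11 CPM with C3Hn in iWAT (-3.50 ± 0.60, adjusted p = 0.0337). In eWAT all C57n libraries lay below all C3Hn libraries, while in iWAT the nuclei overlapped. Robo1, a receptor of the guidance protein Slit, had the same form, with 2.44, 3.05 and 4.50 CPM for C57n and 6.67, 7.99 and 15.4 CPM for C3Hn in eWAT, and 3.05, 3.46 and 4.60 CPM with C57n and 2.92, 3.81 and 4.69 CPM with C3Hn in iWAT (-1.29 ± 0.23, adjusted p = 0.0337). Wif1, a secreted inhibitor of Wnt, had 0.0366, 0.0853 and 0.224 CPM for C57n and 1.36, 2.14 and 31.8 CPM for C3Hn in eWAT, and 0.514, 1.298 and 1.62 CPM with C57n and 1.70, 3.14 and 4.33 CPM with C3Hn in iWAT (-3.91 ± 0.69, adjusted p = 0.0337), so that C57n lay below C3Hn in both depots and further below in eWAT. For 1110018M03Rik the order of the nuclei was opposite in the 2 depots, with medians of 4.58 and 8.14 CPM in eWAT and 3.98 and 1.63 CPM in iWAT for C57n and C3Hn (-1.92 ± 0.34, adjusted p = 0.0337).

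The other 4 followed with Sema3a, a guidance protein (-1.91 ± 0.36, adjusted p = 0.0434), Rgs1, a regulator of G protein signalling (-3.46 ± 0.65, adjusted p = 0.0434), Gdf3, a ligand of the TGF-beta family (-3.66 ± 0.70, adjusted p = 0.0434), and 4930506M07Rik (-1.09 ± 0.21, adjusted p = 0.0434). Their eWAT medians were 1.05, 2.31, 0.184 and 13.2 CPM with C57n, against 2.00, 28.2, 2.84 and 25.2 CPM with C3Hn. Sema3a and 4930506M07Rik were not called without the 6 eWAT libraries with epididymis RNA (adjusted p = 0.0844 and 0.0598).

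**Figure D5:**
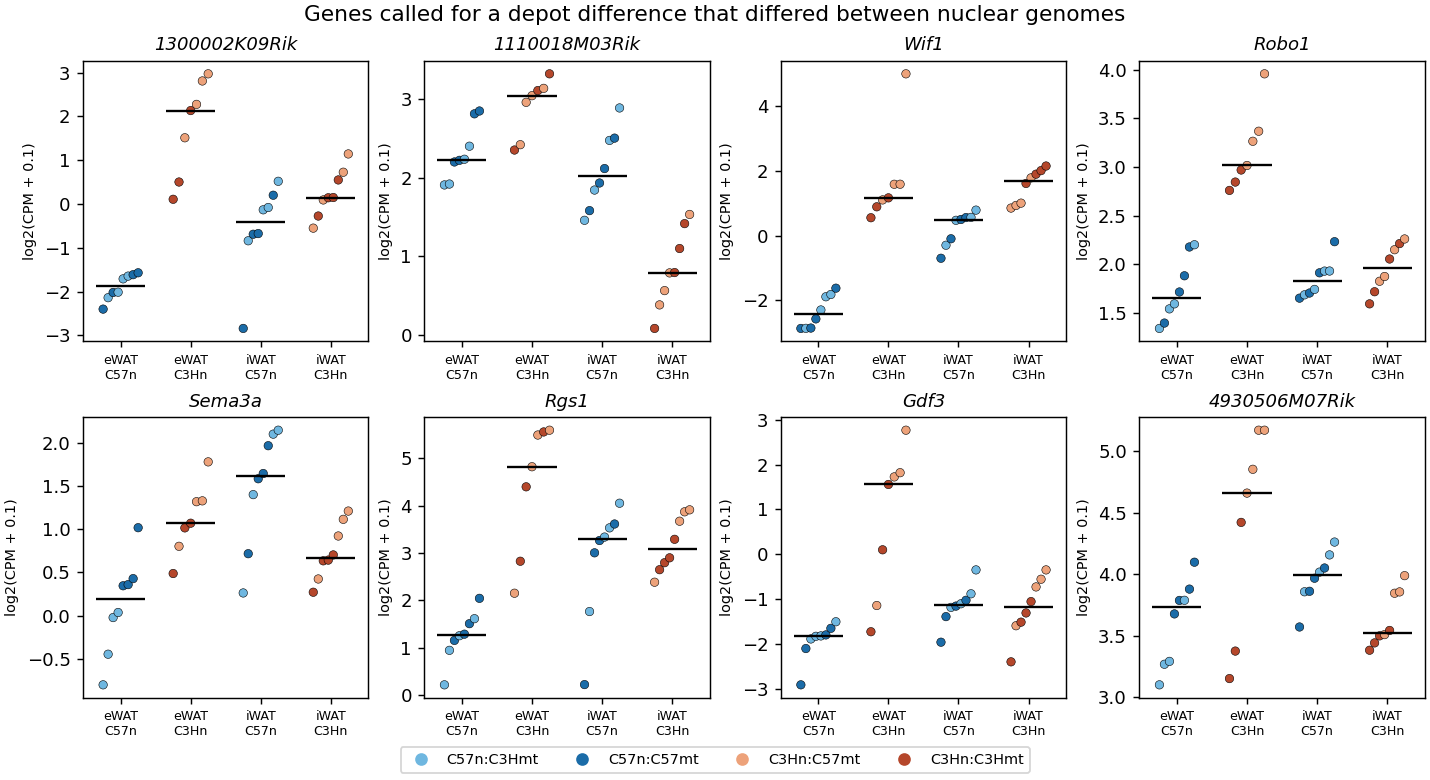
log2(CPM + 0.1) of the 8 genes of smallest adjusted p whose depot difference was called as different between nuclear genomes, by depot and nucleus, with genotypes by colour and medians as bars. In eWAT the C57n median lay below the C3Hn median for all 8, and without overlap for 1300002K09Rik, Wif1, Robo1 and Rgs1.

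Between mitochondrial genomes the depot difference was called for 0 genes in edgeR on either nucleus (0% each). With C57n, as C57n:C3Hmt minus C57n:C57mt, 1265 genes had an unadjusted p under 0.05 and DESeq2 called 70, and with C3Hn, as C3Hn:C57mt minus C3Hn:C3Hmt, 648 had and DESeq2 called 83. The lowest adjusted p in edgeR was 0.539 with C57n and 1 with C3Hn.

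On HFD, fed from week 6, the depots were compared in 14 libraries each, with the same genotypes. Of 16579 genes tested, 1894 were higher (11.4%) and 2205 lower (13.3%) in eWAT. Epididymis genes summed to 27100 CPM in 1 of these eWAT libraries and to at most 23.5 CPM in the others, and lymph node genes to 1574, 1953 and 7752 CPM in 3 iWAT libraries and at most 444 CPM in the others. Fast muscle genes summed to 39.4 to 142 CPM in eWAT, against 3620 to 30590 CPM in 7 iWAT libraries and 89.3 to 675 CPM in the other 7. Without the 7 rich ones, left out after the sums were seen, which leaves 2 genotypes with 1 iWAT library on HFD, 562 genes were higher (3.15%) and 585 lower (3.28%). Of the chow genes also tested on HFD, 1160 of 2888 higher and 1265 of 2418 lower genes were called in the same direction. Of 38 patterning factors outside the Hox clusters tested on HFD, 9 were higher and 16 lower in eWAT. Tcf21 was called again at 7.66 ± 0.41, adjusted p = 4.17e-12, and Wt1 at 8.94 ± 0.36, adjusted p = 5.62e-13. So were Tbx15 at -7.97 ± 0.31, adjusted p = 3.61e-14, Shox2 at -5.63 ± 0.23, adjusted p = 6.44e-14 and Hoxc10 at -6.21 ± 0.41, adjusted p = 1.99e-10. Without the 7 muscle-rich iWAT libraries Tbx15 gave -7.62, adjusted p = 1.51e-09, Shox2 -5.46, adjusted p = 1.23e-08 and Hoxc10 -6.00, adjusted p = 8.04e-06. Also called were Upk3b at 8.38 ± 0.40, adjusted p = 6.14e-13 and Msln at 6.84 ± 0.34, adjusted p = 8.67e-13.

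Gene lists on HFD counted 12 higher and 0 lower of 13 for mesothelium, 3 higher and 5 lower of 28 for Hox, 0 higher and 14 lower of 24 for brown and beige fat, 1 higher and 17 lower of 24 for fatty acid oxidation, 0 higher and 16 lower of 19 for the TCA cycle and 0 higher and 39 lower of 71 for oxidative phosphorylation. Without the 7 muscle-rich iWAT libraries the last 4 lists counted 0 higher and 8 lower of 24, 0 higher and 3 lower of 24, 0 higher and 5 lower of 19 and 0 higher and 1 lower of 71. Ucp1 was lower in eWAT (-6.20 ± 0.78, adjusted p = 5.07e-06), as were Cidea (-3.30 ± 0.28, adjusted p = 1.36e-08) and Cox8b (-2.76 ± 0.24, adjusted p = 2.60e-08), and without those 7 libraries the values were -5.07, adjusted p = 7.19e-04, -3.21, adjusted p = 2.46e-05 and -2.37, adjusted p = 1.74e-04. Genes of lipid-associated macrophages counted 10 higher and 0 lower of 13, with Trem2 at 2.39 ± 0.43, adjusted p = 3.09e-04, and macrophage genes 11 higher and 2 lower of 23. Collagens counted 13 higher and 2 lower of 28, and Lep (0.19 ± 0.28, adjusted p = 0.675) and Adipoq (-0.09 ± 0.17, adjusted p = 0.732) were again not called. Without the 7 muscle-rich iWAT libraries fewer lipid-associated macrophage, macrophage and collagen genes were called. Their list medians were 1.69, 0.48 and 0.43 there, against 1.76, 0.47 and 0.39 over all HFD libraries.

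The difference between diets was itself tested over all 59 fat libraries, as the depot difference on HFD minus that on chow, and was called for 8 of 18325 genes (0.0437%), 7 positive and 1 negative. The HFD libraries were sequenced in other runs, so diet and run cannot be told apart. Dock8, a guanine exchange factor of leukocytes, had a depot difference of 0.57 on HFD and -0.82 on chow (difference 1.42 ± 0.25, adjusted p = 0.0171). Serpinb9b, a serine protease inhibitor, stood at 3.42 and 0.67 in the same order (adjusted p = 0.0255), and Fgd3, an exchange factor of Cdc42, at 0.75 and -1.55 (adjusted p = 0.0361). Sbno2, Centd2 and Atp13a2 were positive too (adjusted p = 0.0171, 0.0171 and 0.0175), and Nbea was negative (adjusted p = 0.0488). With a covariate for HFD run, which did not set the chow run apart from the first HFD run, 617 genes were called. With the animal as a block 31 were called. Without the muscle-rich iWAT libraries of both diets, 7 on HFD and 4 on chow, no call was left. That fit keeps 1 iWAT library in some HFD groups, so it says little of stability. Leaving out single HFD libraries gave 3 to 596. It gave 596 without iWAT replicate 3 and 385 without eWAT replicate 1 of C3Hn:C3Hmt, 71 without iWAT replicate 3 of C57n:C3Hmt, and 14 and 13 without eWAT replicate 1 or iWAT replicate 2 of C3Hn:C57mt. It gave 3 to 5 without eWAT replicate 2 or iWAT replicate 1 of C3Hn:C3Hmt, eWAT replicate 3 of C57n:C3Hmt, or eWAT or iWAT replicate 3 of C3Hn:C57mt.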

How the data were processed

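RNA of eWAT and iWAT was sequenced (31 chow and 28 HFD libraries used here). The deposited tables hold estimated counts per gene made by the authors with RSEM on the mm9 build, per the submitters' processing notes, which also name DESeq2 1.10.1; no RSEM version, annotation or counting strand is given in the sources used here. Reads of a gene and its antisense partner, and of near-identical copies, were therefore not told apart. Mapping shares in percent and insert lengths in bases are the authors' values, per the file headers.

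Estimated counts were rounded to whole numbers (64.5% were whole). Genes were kept by edgeR's filterByExpr (minimum count 10, total 15, proportion 0.7), scaled by TMM and tested with edgeR 4.0.16's quasi-likelihood test in R 4.3.3, as a contrast averaged over 4 genotypes in a model of 8 groups, with Benjamini-Hochberg adjustment over all genes tested. SE was taken from the fold change and its F statistic. The alternatives used DESeq2 1.42.0, limma 3.58.1 (animal as a block), other scaling and filters, mgcv 1.9.3 (GC content and length, known for 85.0% of genes), the mean log2 CPM of 3 tissue lists as covariates, and fits without libraries. The test was tried on simulated data first.

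Animal numbers in the titles pair 8 mice. The residuals of their 2 depots correlated at a median of 0.062, over 0.1 in 2 of 8 pairs, against -0.002 between other animals; the pairing rests on the labels. Nothing else says how replicates were raised or prepared, so p-values measure the spread between these libraries. The genes named are those of largest fold change without overlap between depots (15 a side, mean of at least 1 CPM in the higher depot), the 8 of largest fold change called on each side, up to 6 called members a direction of each of 33 gene lists by adjusted p, the 4 highest members of each neighbouring-tissue list, up to 8 genes per interaction, and a few genes given whether called or not; Hoxb4, Hoxb7, Hoxb8, Hoxb9, Gata5 and a few members named beside these were chosen after their values were seen. A few genes these rules name are not reported here. Members, lists and tests were chosen with earlier results of these data known. Gene positions are from GENCODE vM1 (NCBIM37, the same assembly as mm9), and promoters from RefSeq (GRCm38.p6).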

Additional observations from a re-analysis of the deposited data

Results flagged for a closer look

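9 single-library gaps passed Dixon's 95% limit among 53 groups of 4 to 10 libraries tested; chance passes about 1 in 20 groups. In eWAT of C57n:C57mt 1 library stood apart for the epididymis sum (23300 CPM) and 1 for the lymph node sum (394 CPM). For the fast muscle sum 1 library stood apart in eWAT of C3Hn:C57mt (989 CPM), in iWAT of C3Hn:C57mt (21080 CPM), in iWAT of C3Hn:C3Hmt (21970 CPM) and in iWAT of C57n:C3Hmt (4707 CPM). Within C3Hn eWAT a library stood apart for Wif1 (31.8 CPM) and for Robo1 (15.4 CPM), and within C57n iWAT for Robo1 (4.60 CPM).

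The depot difference differed between nuclear genomes, as log2 C57n minus C3Hn, for 1300002K09Rik (-3.50), 1110018M03Rik (-1.92), Wif1 (-3.91), Robo1 (-1.29), Sema3a (-1.91), Rgs1 (-3.46), Gdf3 (-3.66) and 4930506M07Rik (-1.09). It differed between diets, as log2 HFD minus chow, for Sbno2 (0.80), Centd2 (0.75), Dock8 (1.42), Atp13a2 (0.63), Serpinb9b (2.78), Fgd3 (2.34) and Nbea (-1.28). Their tests and the fits that ended them are given above, and the part of epididymis, lymph node or muscle RNA in them was not tested beyond leaving libraries out.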

How the results depend on the processing

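The 5857 depot calls were 2431 with a replicate block in paired animals only, 593 with 3 tissue covariates, 302 without the 11 iWAT libraries with lymph node RNA, 969 in the reduced set, and 5266 to 6345 without 1 library. Within genotypes, the fits without the 11 iWAT libraries and of the reduced set keep 1 iWAT library in 3 of the 4 genotypes, which is assumed to vary like the others, so their counts say little of stability. In C57n:C57mt the count was 1102 with the stricter filter, 490 with the block, 493 with covariates, 597 without the 6 eWAT libraries, 27 without the 11, 198 in the reduced set and 447 to 2290 without 1 library. In C57n:C3Hmt it was 1527, 166, 721, 41 and 312 in the same order from the block on, and 1075 to 4065. In C3Hn:C3Hmt it was 366 with DESeq2, 177 with covariates, 361 without the 6, 9 without the 11, and 44 to 137. In C3Hn:C57mt it was 1660 with DESeq2, 319 with the block, 943 with covariates, 48 without the 11, 246 in the reduced set, and 125 to 1035.

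By nucleus the count was 514 with DESeq2, 11 with no filter, 14 with the stricter one, 6 with the block, 43 with covariates, 93 without the 6, 0 without the 11, 195 without the 4 muscle-rich libraries, 2 in the reduced set, and 0 to 156. By mitochondrial genome it was 70 with DESeq2, 2 with covariates and 0 to 8 in C57n, and 83 with DESeq2, 29 in the reduced set and 0 to 0 in C3Hn. On HFD it was 1147 without the 7 muscle-rich iWAT libraries, and 3565 to 4633 without 1 library. By diet it was 653 with DESeq2, 617 with the covariate for HFD run, 31 with the block, 32 without epididymis libraries, and 3 to 596. No diet call was left without the muscle-rich iWAT libraries of both diets, 7 on HFD and 4 on chow.

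The Ltf estimate was -0.34 to 2.30 without 1 library. Log2 estimates turned sign with 3 tissue covariates for 2210415F13Rik (-1.43), Acta1 (0.91), Adam28 (-0.68), Cd3d (0.042), Cd3g (0.10), Cd79a (1.17), Cd79b (0.63), Egr2 (-0.53), Gpnmb (-0.20), Gpx5 (-2.51), Lcn8 (-4.42), Lep (-0.31), Mybpc2 (0.62), Rnase10 (-3.28) and Tnc (0.18). Of these, Acta1, Adam28, Cd3d, Cd3g, Cd79a, Cd79b, Gpx5, Lcn8, Mybpc2 and Rnase10 are members of the lists that make up the covariates. Log2 estimates turned sign with the paired block for Acta1 (0.68) and Ltf (-0.0071). Log2 estimates turned sign without the 4 muscle-rich libraries for Acta1 (0.32). Log2 estimates turned sign without the 6 eWAT libraries for Adam28 (-0.18), Cldn3 (-0.66), Erbb3 (-0.57), Krt15 (-1.002), Krt5 (-2.42), Ltf (-1.66), Spint1 (-0.72), Spint2 (-0.48), Srd5a1 (-0.64), Tacstd1 (-0.81) and Tnnt1 (-0.69). Log2 estimates turned sign without the 11 iWAT libraries for Adipoq (-0.12), Ccr7 (0.17), Cd27 (0.38), Cd37 (0.13), Cd3d (0.34), Cd3g (0.52), Cd6 (0.47), Cd79a (1.25), Cd79b (1.01), Ciita (0.28), Coro1a (0.23), Elovl6 (0.19), Grem1 (1.77), H2-DMb2 (1.44), H2-Eb1 (0.0095), H2-Oa (0.54), H2-Ob (0.46), Lep (-0.48), Mcm3 (0.13), Sema3c (-0.022) and Tnc (0.016). Log2 estimates turned sign in the reduced set for Atp5g1 (-0.020), Ccr7 (0.060), Cd27 (0.47), Cd37 (0.33), Cd3d (0.17), Cd3g (0.36), Cd6 (0.32), Cd79a (0.56), Cd79b (0.52), Ciita (0.50), Cldn3 (-1.18), Coro1a (0.43), Cyp26b1 (0.062), Egr2 (-0.14), Erbb3 (-0.48), H2-DMb2 (0.83), H2-Eb1 (0.18), H2-Oa (0.14), H2-Ob (0.32), Hoxb9 (-0.25), Icam1 (0.055), Krt15 (-1.76), Krt5 (-2.40), Lep (-0.18), Mcm3 (0.23), Sema3c (-0.081), Srd5a1 (-0.81), Tnc (0.066) and Tnnt1 (-0.39). Libraries left out in the fits without the 6, without the 11 and of the reduced set were chosen by epididymis or lymph node genes. Those fits are no independent test of members of these 2 lists. The causes were not tested. Of 237 named genes, 178 kept their side of the threshold in the limma fit with the block. The other 59 were called in edgeR and not there, and block and change of test cannot be told apart in this. In every fit without 1 library 212 kept their side. DESeq2 kept 219 of the 223 it tested, and correction for GC content and length 229.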
